A study of Mus musculus with 20 samples.

Results

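The complement and coagulation genes followed here are 45 genes named by a fixed list and found in the deposited gene tables by symbol. Of the 45 genes, 44 are listed under the symbol of the list, and the remaining gene, C1s, was matched as C1s1 through its RefSeq synonym and gene ID. The tables hold 25444 genes, of which 13704 passed the filter on low counts, and all 45 members were among them. RNA-seq of liver was available for 20 mice in 4 groups of 5: female and male C57BL/6N mice, abbreviated B6, and female and male C3H/HeN mice. The labels abbreviate C3H/HeN as C3, and to keep them apart C3 stands below only for complement component C3. All mice were 20 weeks old, with no treatment or engineered allele named in the labels, and RNA came from the left lateral lobe. Per the study's methods, each sex had a room of its own, so the effects of sex and of housing room cannot be told apart here.

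Complement is a set of plasma proteins, most of them made by hepatocytes, in which proteases activate each other in order. The classical pathway starts with C1q and its proteases C1r and C1s, the lectin pathway with mannose-binding lectins and MASP proteases, and the alternative pathway with factors B and D. All of them converge on C3, and the terminal components then assemble a pore in the target membrane. Coagulation is a similar cascade of liver-made proteases and cofactors that ends with thrombin cutting fibrinogen into fibrin, with protein C, protein S and thrombomodulin as brakes and plasmin as the enzyme that dissolves the clot.

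Libraries held 27370921 to 46835745 counts in genes and were sequenced in 3 pools of 8, 5 and 7 libraries, each pool with all 4 groups. In pool 2, replicate 3 was the only B6 female, and replicate 1 the only B6 male and the only C3H/HeN female. In pool 3, replicate 4 was the only C3H/HeN male. Differences within these pools therefore rest in part on single libraries. Levels are given as CPM, a gene's counts relative to all counts of its library scaled by edgeR's TMM factors. Levels of different genes are compared only in TPM, which also corrects for gene length. The hepatocyte marker Alb averaged 66015 to 122610 CPM in the 4 groups. A library stood apart in each of 2 groups. The C3H/HeN female of replicate 4 had the highest fibrinogen, C8a and C9 levels of its group, and the C3H/HeN male of replicate 5 had a balance of C1ra and C1rb unlike that of the other mice, described below. Sequencing pool was a term in the fit, because it accounted for up to 94.0% of the within-group variance of a member (C8g, whose level in pool 3 was 1.82 times that in pool 1).

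The members spanned a wide range of levels. In median TPM over the 20 libraries, 8 of the 45 members exceeded 1000, and 30 exceeded 100. The fibrinogen chains Fgb (7662 TPM), Fgg (4895 TPM) and Fga (3631 TPM) and complement C3 (4257 TPM) led, followed by plasminogen Plg (2079 TPM), the kininogen Kng1 (1804 TPM), prothrombin F2 (1607 TPM) and factor B, Cfb (1121 TPM). Only 8 members had a median under 10 TPM. They were C1s2, C4a, F3, C1rb, Thbd, Vwf, C7 and Cfd, and 3 of these (Vwf, C7 and Cfd) were under 1 TPM. Tissue factor F3, thrombomodulin Thbd and von Willebrand factor Vwf are made mostly outside hepatocytes.

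**Figure D1:**
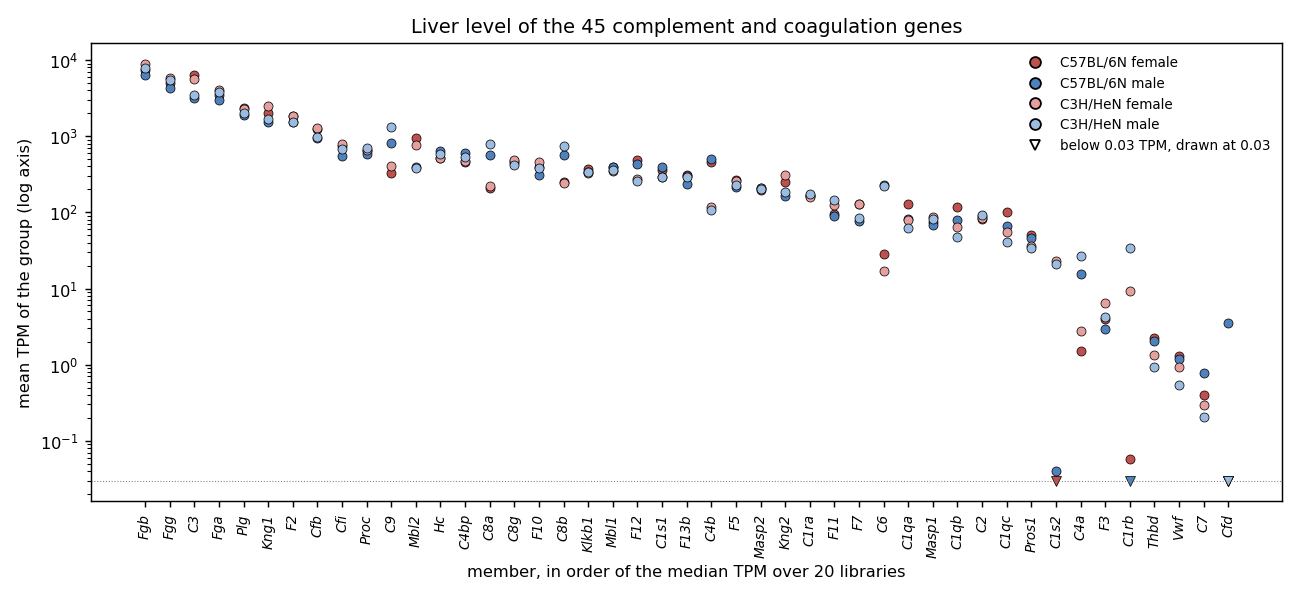
Mean TPM of each of the 45 members in the 4 groups on a log axis, with members in order of their median over the 20 libraries and triangles marking means below 0.03 TPM. Group means ran from 6442 to 8812 TPM for Fgb down to 3.51 TPM in B6 males and 0 in the other groups for Cfd. Most members kept the 4 groups close together, with C6, C4a, C4b, C1rb, C1s2 and Cfd as the widest exceptions. C7, C8a, C8b and C9 were also spread, for C9 from 329 TPM in B6 females to 1327 TPM in C3H/HeN males.

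A difference was called at an edgeR adjusted p under 0.001 with an absolute log2 fold change over 0.5, with p-values adjusted over all 13704 genes. Comparing females with males in B6, 9 of the 45 members were called (20%), beside 6.34% of all genes tested. Higher in females were 3 members (3.23% of all genes were higher), namely C3, Mbl2 and F7, and lower were 6 members (3.12% of all genes were lower), namely C4a, C6, C8a, C8b, C9 and Cfd. Of these, Cfd passed the filter on low counts through B6 males alone, as described below. In C3H/HeN, 8 members were called between the sexes, beside 6.90% of all genes. C3, Mbl2 and Kng2 were higher in females (4.11% of all genes) and C4a, C6, C8a, C8b and C9 were lower (2.79% of all genes). The calls in the 2 strains had 7 members and their direction in common, which is 77.8% of the B6 calls and 87.5% of the C3H/HeN calls. The matching share over all genes was not computed, so this overlap is not read as a trait of the members. The strains share no library, but both sets of calls came from 1 fit of all 20 libraries. With upper-quartile scaling in place of TMM the split of higher against lower members was 5 to 6 in B6 and 5 to 5 in C3H/HeN.

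Between the strains, 7 members were called in females, beside 9.40% of all genes, with C1rb and C1s2 higher in C3H/HeN (4.63% of all genes) and C1qa, C1qb, C1qc, C4b and F12 lower (4.77% of all genes). In males, 8 members were called, beside 9.64% of all genes, with C1rb, C1s2 and F11 higher in C3H/HeN (4.09% of all genes) and C1qb, C4b, Cfd, F12 and Thbd lower (5.55% of all genes). No member was called for the sex-by-strain interaction, the test of whether the sex difference itself differed between strains, at which 0.401% of all genes were called (0.270% with a positive and 0.131% with a negative term). At an unadjusted p under 0.05, 8 of the 45 members had an interaction, beside 16.1% of all genes in edgeR's test, and the smallest edgeR adjusted p-values were 0.0210 for F13b and 0.0431 for Mbl2. DESeq2 and limma on log2 TPM called 1 member there, Cfd. The edgeR test of the interaction could not judge Cfd, because it had 0 counts in every library outside B6 males. In all, 19 of the 45 members were called in at least 1 comparison and 26 in none, beside 2662 of the 13704 genes (19.4%) called in at least 1. Among them, C1rb, C1s2 and Cfd passed the filter on low counts only through the groups in which they are high. Such genes had to differ, so their calls, counted here and above, are a description. The fit had chosen the 32 sex and strain calls on these values, so the following is a description: all 32 had the same direction in each of the 3 pools, as had 99.9% of the 4423 such calls over all genes, and in 30 of them the values of the 2 groups did not overlap, as in 81.1% of those over all genes. The median log2 fold change of the 45 members was 0.03 and 0.00 for sex in B6 and C3H/HeN, against 0.00 and 0.01 over all genes, and 0.08 and 0.13 for strain in females and males, against 0.02 and 0.01 over all genes.

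**Figure D2:**
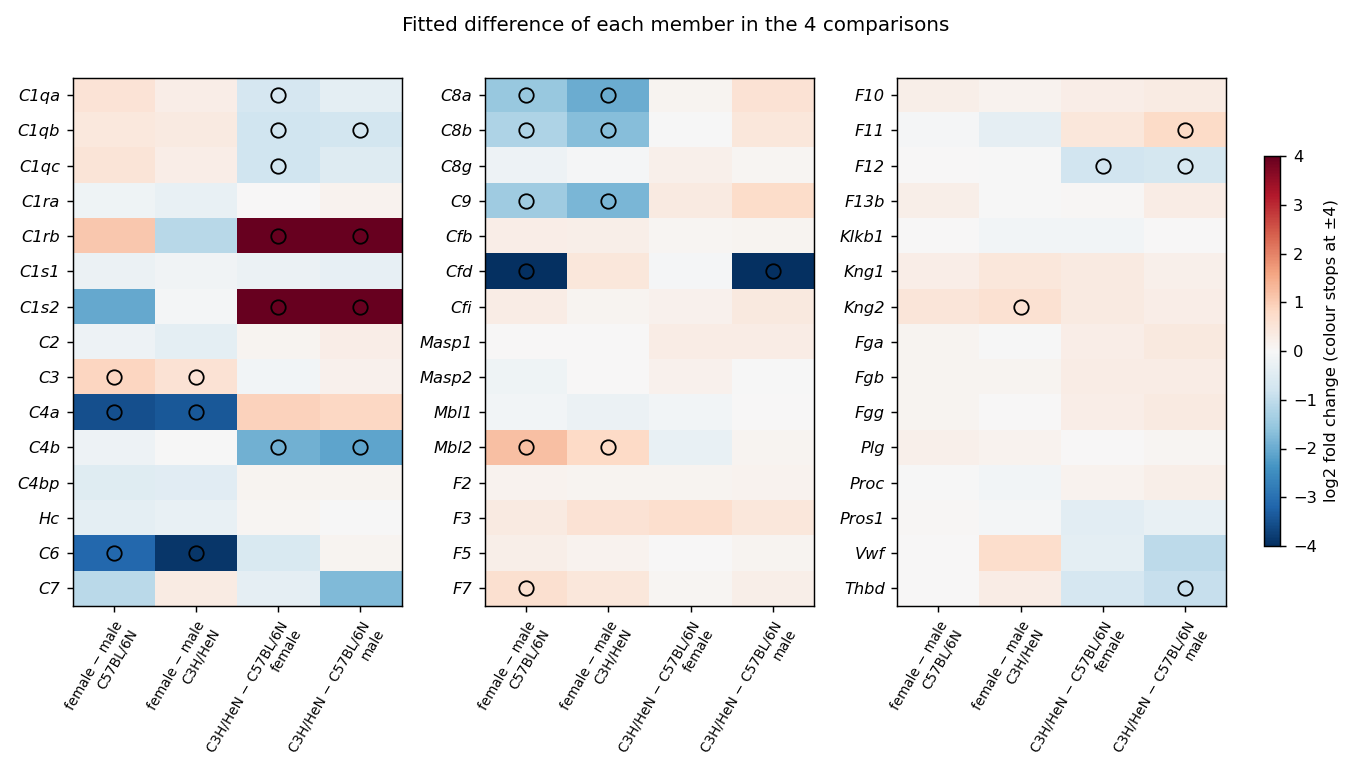
Fitted log2 fold change of the 45 members (rows) in the 4 comparisons (columns), coloured red where the first-named group was higher and blue where it was lower, with colour stopping at ±4 and circles on the 32 calls. The sex columns share their circles at C3, C4a, C6, C8a, C8b, C9 and Mbl2, and the strain columns share theirs at C1qb, C1rb, C1s2, C4b and F12.

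The terminal components, which form the membrane attack complex, held the most members called between the sexes of any role. Of 7 members, 4 were lower in females in both strains and 3, namely Hc, C7 and C8g, were not called in either. Their genes lie on 3 chromosomes. C6, C7 and C9 are on chromosome 15, C8a and C8b are neighbours on chromosome 4 with their ends facing each other, and Hc and C8g are on chromosome 2. The 150 bases upstream of the starts of the 4 called genes, read from the mm9 assembly on the coding strand, are shown because these genes were lower in females together.
C6, chr15:4677060-4677209, strand +: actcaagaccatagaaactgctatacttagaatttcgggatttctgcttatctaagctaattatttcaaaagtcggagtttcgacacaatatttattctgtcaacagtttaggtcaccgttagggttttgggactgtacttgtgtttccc
C8a, chr4:104549004-104549153, strand -: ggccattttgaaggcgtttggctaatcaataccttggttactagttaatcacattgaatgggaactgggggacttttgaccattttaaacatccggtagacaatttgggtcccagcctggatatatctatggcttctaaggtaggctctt
C8b, chr4:104438772-104438921, strand +: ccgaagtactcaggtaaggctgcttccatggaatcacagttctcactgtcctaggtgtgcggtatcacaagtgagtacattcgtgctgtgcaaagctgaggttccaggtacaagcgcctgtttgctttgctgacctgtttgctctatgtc
C9, chr15:6395183-6395332, strand +: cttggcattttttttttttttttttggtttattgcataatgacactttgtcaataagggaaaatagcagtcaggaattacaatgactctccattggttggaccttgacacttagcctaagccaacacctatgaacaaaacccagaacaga

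C6, which binds the fragment of component 5 that starts the pore, differed most. In B6 it stood at 44.8, 33.9, 23.7, 28.9 and 48.5 CPM in females and at 192, 276, 489.5, 256 and 395 CPM in males, listed by replicate. Every male was above every female, and the female level was 8.90-fold lower (log2 fold change -3.15, SE 0.22, edgeR adjusted p = 3.46e-09). In C3H/HeN, C6 was at 19.5, 15.9, 25.3, 34.6 and 20.7 CPM in females and 258, 341, 343, 397 and 264 CPM in males. The difference was 14.8-fold in the same direction (log2 fold change -3.89, SE 0.23, edgeR adjusted p = 3.11e-10), and within pools 1, 2 and 3 it was -3.67, -3.73 and -4.30 on the log2 scale, against -3.14, -3.01 and -3.18 in B6. The interaction log2 fold change was -0.74 with an SE of 0.29 and an edgeR adjusted p of 0.197, so the test did not separate the 2 sex differences.

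C8a and C8b encode the alpha and beta chains of component C8. In B6, C8a was at 407, 249, 313, 320.0 and 440.3 CPM in females and 697, 1076, 1167, 693 and 1350.4 CPM in males (log2 fold change -1.50, SE 0.25, edgeR adjusted p = 1.69e-04). In C3H/HeN it was at 343, 214, 246, 842 and 316 CPM in females and 1251, 1582, 1645, 1362 and 1516 CPM in males (log2 fold change -1.98, SE 0.26, edgeR adjusted p = 1.32e-05). The groups did not overlap in either strain, although the C3H/HeN female of replicate 4, at 842 CPM, lay far above the other females of its group. Without it the log2 fold change was -2.34 for C8a, -1.89 for C8b and -1.96 for C9. C8b was at 238, 162, 189, 301 and 382 CPM in B6 females and 402, 761, 605, 316 and 995 CPM in B6 males (log2 fold change -1.25, SE 0.19, edgeR adjusted p = 7.86e-05). Here the groups overlapped, since 1 male had 316 CPM and 1 female 382 CPM, and the 2 libraries were in different pools. The level of C8b in pool 3 was 0.53 times that in pool 1 over all groups. Within pools 1, 2 and 3 the log2 difference was -1.36, -1.09 and -1.15. In C3H/HeN, C8b was at 249, 156, 155, 489 and 263 CPM in females and 730.4, 1036, 1029, 634 and 791 CPM in males, with no overlap (log2 fold change -1.72, SE 0.20, edgeR adjusted p = 2.86e-06). Without the pool term, the calls of C8b were lost in B6 (edgeR adjusted p = 0.0130) and in C3H/HeN (edgeR adjusted p = 0.00157), and so was that of C8a in B6 (edgeR adjusted p = 0.00143).

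C9, which polymerises into the wall of the pore, followed the same pattern. It was at 232, 261, 229, 229 and 358 CPM in B6 females and 478, 719, 853, 499 and 1025 CPM in B6 males (log2 fold change -1.43, SE 0.20, edgeR adjusted p = 2.80e-05). In C3H/HeN it was at 396, 203, 232, 547 and 356 CPM in females and 983, 1363, 1399.8, 1089 and 1197 CPM in males (log2 fold change -1.82, SE 0.20, edgeR adjusted p = 2.20e-06). The groups did not overlap, and the C3H/HeN males reached the highest levels. The strain difference in males was 0.75 on the log2 scale and missed the threshold (edgeR adjusted p = 0.00761).

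The other terminal members did not share the size of that difference. Hc, the gene of component C5, was at 1279 ± 152 CPM in B6 females and 1684 ± 336 CPM in B6 males (SD, n = 5), with a log2 fold change of -0.39 and an edgeR adjusted p of 0.00438. In C3H/HeN its log2 fold change was -0.29 with an edgeR adjusted p of 0.0264. C8g, the gamma chain of C8 and a lipocalin unrelated to the other chains, was at 250.03 ± 87.0, 283 ± 90.8, 287 ± 87.0 and 269.9 ± 64.1 CPM in B6 females, B6 males, C3H/HeN females and C3H/HeN males (SD, n = 5). Its sex difference was -0.19 in B6 and -0.06 in C3H/HeN on the log2 scale, both short of the fold limit. C7 was near the detection limit, with 3 to 52 counts per library, and its log2 fold changes between the sexes of -1.07 in B6 and 0.34 in C3H/HeN did not pass the test (edgeR adjusted p = 0.0254 and 0.570). Between the strains in males its log2 fold change was -1.78 (edgeR adjusted p = 0.00190).

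**Figure D3:**
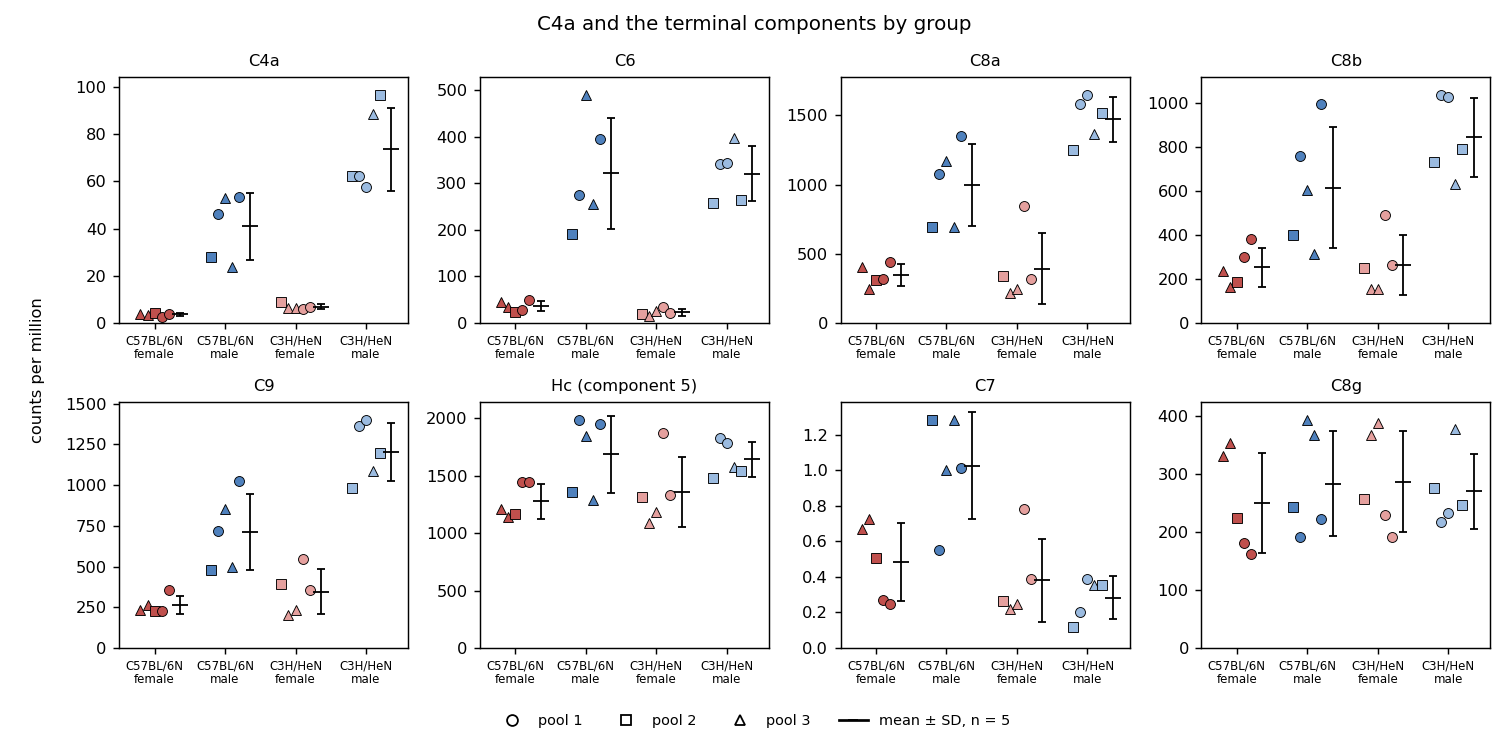
CPM of C4a and the 7 terminal components in each library, with 5 libraries a group, symbols for the sequencing pool and bars for the mean ± SD. Males of both strains lie above females in C4a, C6, C8a and C9, 1 pair of libraries crosses in C8b in B6, and Hc, C7 and C8g overlap between the sexes in both strains.

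C4a, known as sex-limited protein, is the near copy of C4b whose product lacks the usual C4 activity. It was at 4.01, 3.52, 4.08, 2.76 and 3.79 CPM in B6 females and at 27.9, 46.4, 53.1, 23.9 and 53.5 CPM in B6 males. Males were far above females without overlap (log2 fold change -3.50, SE 0.24, edgeR adjusted p = 3.39e-09), a fold difference of 11.3. In C3H/HeN it was at 9.09, 6.36, 6.56, 5.98 and 6.85 CPM in females and 62.5, 62.4, 57.7, 88.7 and 96.5 CPM in males (log2 fold change -3.39, SE 0.23, edgeR adjusted p = 3.94e-09), a fold difference of 10.51. The log2 differences within pools were -3.90, -2.74 and -3.21 in B6 and -3.21, -3.08 and -3.76 in C3H/HeN. C3H/HeN had more C4a than B6 in either sex, by 0.93 in females and 0.82 in males on the log2 scale, and these differences missed the threshold (edgeR adjusted p = 0.00546 and 0.00553).

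C4b, the functional complement C4, was called between the strains in both sexes and in neither comparison of the sexes. It was at 851, 1439.9, 1162, 1026 and 1177 CPM in B6 females and 270.3, 297, 349.9, 353 and 220.1 CPM in C3H/HeN females (log2 fold change -1.93, SE 0.14, edgeR adjusted p = 4.13e-09). In males it was at 1328, 1131, 1588, 1472 and 1051 CPM in B6 and 291, 295, 232, 369 and 291 CPM in C3H/HeN (log2 fold change -2.11, SE 0.14, edgeR adjusted p = 1.32e-09). All B6 mice were above all C3H/HeN mice, by 3.81-fold in females and 4.32-fold in males. The log2 fold change between the sexes was -0.20 in B6 and -0.02 in C3H/HeN (edgeR adjusted p = 0.272 and 0.934). C4b held a median of 99.7% of the summed TPM of C4a and C4b in B6 females, 96.7% in B6 males, 97.9% in C3H/HeN females and 80.5% in C3H/HeN males.

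C4a and C4b are both on the minus strand of chromosome 17, at chr17:34946037-34960399 and chr17:34865326-34880842 in mm9. Their annotated exons are 95.9% identical over 5378 aligned bases, and 11.5% of the 125-base stretches of C4a occur unchanged in C4b. These figures and those for other pairs below were computed over GENCODE exons, which may differ from the RefSeq exons the authors counted. Reads that fit more than 1 place were not counted, and how many reads this took from either gene was not tested. The assembly is of a C57BL/6 mouse, and reads of C3H/HeN mice were placed on it too. Whether strain variants shifted reads between the copies was not tested. The 100 bases before the start of C4b and their counterpart before C4a, with bases that differ in capitals, are shown because they precede 2 genes with different sex and strain patterns.
C4b, chr17:34880843-34880942, strand -: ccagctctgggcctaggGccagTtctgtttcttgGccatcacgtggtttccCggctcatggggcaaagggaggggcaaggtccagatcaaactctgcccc
C4a, chr17:34960421-34960521, strand -: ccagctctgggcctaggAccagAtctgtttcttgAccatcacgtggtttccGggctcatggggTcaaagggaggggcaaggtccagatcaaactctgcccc

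Of these, 96 bases were the same in both.

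The proteases C1r and C1s each have an additional copy, C1rb and C1s2, on chromosome 6 next to the main genes C1ra and C1s1. Both additional copies were nearly silent in B6 and expressed in C3H/HeN. They passed the filter on low counts through the C3H/HeN mice alone, the strain in which they are high. A gene that passes in this way had to differ, so their strain tests are given as a description. C1rb was at 1, 6, 0, 2 and 3 counts in the B6 female libraries and 0, 0, 1, 3 and 1 counts in the B6 males, and at 303, 351, 379, 354 and 359 counts in the C3H/HeN females and 297, 571, 446, 461 and 3866 counts in the C3H/HeN males. In females the means were 0.0552 CPM in B6 and 9.54 CPM in C3H/HeN (log2 fold change 7.38, SE 0.87, edgeR adjusted p = 2.38e-06). In males, 1 library set the mean: the C3H/HeN male of replicate 5 had 138 CPM, against 10.95 to 16.4 CPM in the other 4. The log2 fold change in males was 9.55 (SE 0.96, edgeR adjusted p = 3.11e-07), and 8.64 without that library.

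C1s2 had 0, 0, 1, 1 and 0 counts in the B6 females and 1, 4, 1, 2 and 1 in the B6 males. The C3H/HeN females were at 30.6, 34.3, 36.3, 21.3 and 21.5 CPM and the males at 29.8, 25.3, 23.9, 44.2 and 19.7 CPM. Against the 2 counts in B6 females the ratio of C3H/HeN to B6 was 3013, with an exact 95% counting interval of 834 to 24887 (edgeR adjusted p = 5.13e-15). In males, with 9 counts in B6, the log2 fold change was 9.18 (SE 0.26, edgeR adjusted p = 9.13e-15). Intervals of this kind cover counting error only.

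C1ra was at 205 ± 9.08 CPM in B6 females, 231 ± 17.6 in B6 males, 207 ± 16.3 in C3H/HeN females and 251 ± 47.04 in C3H/HeN males (SD, n = 5), and C1s1 at 486 ± 37.5, 575 ± 26.98, 416 ± 13.1 and 453 ± 106 CPM. Neither main copy was called in any comparison, and the strain log2 fold changes were 0.02 in females and 0.14 in males for C1ra and -0.22 and -0.33 for C1s1. In C3H/HeN, C1rb was 5.56% of the summed TPM of C1ra and C1rb in the median female and 6.21% in the median male, and C1s2 was 7.29% and 6.31% of the summed TPM of its pair.

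The C3H/HeN male of replicate 5 also had the lowest C1ra of its group, at 168 CPM against 257 to 279 CPM in the others, and the lowest C1s1, at 266 against 476 to 528 CPM. Its C1s2, at 19.7 CPM, lay below the 23.9 to 44.2 CPM of the others. A sum over C1ra and C1rb, formed after these values were seen, gave 306 CPM in this library and 271 to 306 CPM over the 5 males. For C1s1 and C1s2 the sum was 286 CPM in this library, below the 500.4 to 554 CPM of the other 4. This mouse had a C1rb share of the summed TPM at 51.2%, where the other C3H/HeN mice had 4.73% to 7.19%.

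The copies are close enough to share reads. The annotated exons of C1ra and C1rb were 97.9% identical over 2140 aligned bases, and 29.6% of the 125-base stretches of C1ra and 38.6% of those of C1rb occurred in both. For C1s1 and C1s2 identity was 95.4% over 2818 bases and the shared parts were 4.5% and 4.7%. The GENCODE annotation of the same assembly also lists transcripts that run from the start region of one copy to the end of the other: C1rb-201 spans chr6:124462790-124531062 from C1ra to C1rb, and C1s-201 spans chr6:124480566-124586085 from C1s2 to C1s1. The split of reads between copies is therefore uncertain, and its part in these differences was not tested. Upstream bases are shown because copies with unlike levels have nearly the same ones in the reference assembly. The first line of each pair is the 100 bases before the main copy's start and the second its counterpart near the additional copy, with differing bases in capitals.
C1ra, chr6:124462539-124462638, strand +: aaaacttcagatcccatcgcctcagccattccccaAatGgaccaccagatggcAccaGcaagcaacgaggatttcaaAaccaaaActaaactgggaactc
C1rb, chr6:124520197-124520296, strand +: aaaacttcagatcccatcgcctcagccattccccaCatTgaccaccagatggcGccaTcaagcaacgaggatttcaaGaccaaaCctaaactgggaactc
C1s1, chr6:124492378-124492477, strand -: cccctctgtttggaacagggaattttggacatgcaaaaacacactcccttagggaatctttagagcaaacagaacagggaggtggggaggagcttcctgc
C1s2, chr6:124587026-124587125, strand -: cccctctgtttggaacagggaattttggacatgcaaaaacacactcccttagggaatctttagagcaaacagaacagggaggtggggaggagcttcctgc

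For C1ra and C1rb, 94 of 100 bases were the same, and the counterpart ended 152 bases before the annotated start of C1rb. For C1s1 and C1s2 all 100 bases were the same, and the counterpart ended 923 bases before the annotated start of C1s2.

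**Figure D4:**
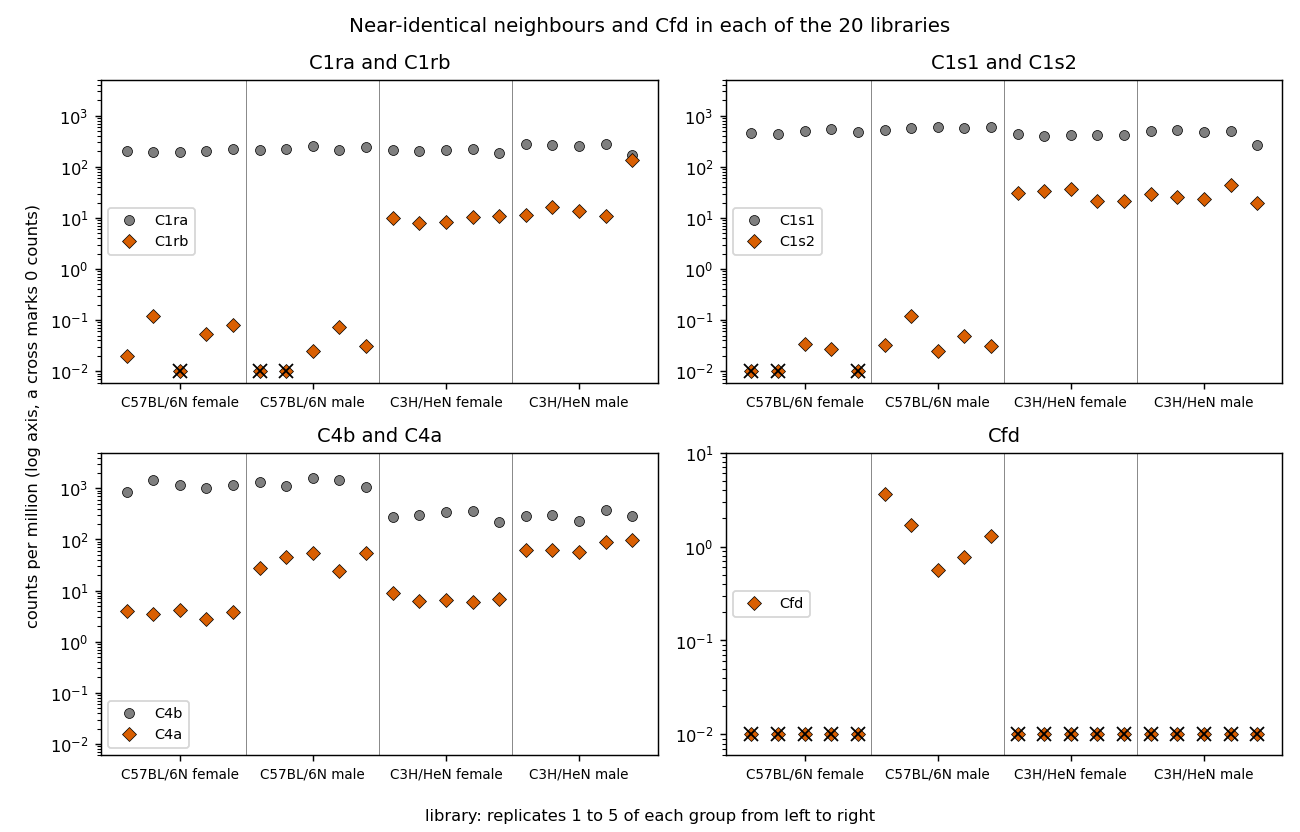
CPM on a log axis in each of the 20 libraries for C1ra and C1rb, C1s1 and C1s2, C4b and C4a, and Cfd, with crosses for libraries that had 0 counts. C1rb and C1s2 lie under 0.2 CPM in all B6 mice and over 7 CPM in all C3H/HeN mice, C4a separates by sex and C4b by strain, and Cfd has counts in the 5 B6 males only.

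The 3 chains of C1q, the recognition part of the first component, are made in liver by Kupffer cells, the resident macrophages. In females all 3 were lower in C3H/HeN. C1qa was at 56.1, 55.4, 65.1, 65.6 and 76.3 CPM in B6 and 40.3, 33.5, 47.9, 43.5 and 35.7 CPM in C3H/HeN (log2 fold change -0.66, SE 0.11, edgeR adjusted p = 1.40e-04). C1qb was at 50.2, 51.6, 53.0, 58.5 and 67.9 CPM in B6 and 30.1, 23.1, 34.1, 40.2 and 35.0 CPM in C3H/HeN (log2 fold change -0.79, SE 0.11, edgeR adjusted p = 1.63e-05). C1qc was at 60.8, 57.5, 42.6, 32.8 and 42.2 CPM in B6 and 22.2, 28.5, 42.5, 22.4 and 21.3 CPM in C3H/HeN (log2 fold change -0.79, SE 0.14, edgeR adjusted p = 2.04e-04), with 1 C3H/HeN female inside the B6 range. In males C1qb was called, at 43.3, 41.0, 40.6, 39.8 and 42.8 CPM in B6 and 33.8, 24.5, 24.9, 21.8 and 25.1 CPM in C3H/HeN (log2 fold change -0.72, SE 0.11, edgeR adjusted p = 6.84e-05). In males C1qa and C1qc had log2 fold changes of -0.38 and -0.53 and missed the threshold (edgeR adjusted p = 0.0142 and 0.00787). Without the C3H/HeN male of replicate 1, C1qc passed it there (edgeR adjusted p = 2.06e-04).

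Between the sexes in B6, C1qa, C1qb and C1qc had log2 fold changes of 0.54, 0.43 and 0.51, short of a call (edgeR adjusted p = 0.00109, 0.00523 and 0.00773). The C1qa call in females was lost when only the 10 female libraries were fitted (edgeR adjusted p = 0.00169). The C1qc call was lost without the pool term (edgeR adjusted p = 0.0457) and without the C3H/HeN female of replicate 1 (edgeR adjusted p = 0.00106). Like the C1q chains, several summed marker lists had lower medians in C3H/HeN than in B6 in each sex. The sum of 7 Kupffer cell markers ranged over 419 to 555 CPM in B6 females, 267 to 417 in B6 males, 281 to 426 in C3H/HeN females and 195 to 289 in C3H/HeN males. Of these 7 markers, 4 were called lower in C3H/HeN females, 3 in C3H/HeN males, and all 7 were detected in every group. The sum of 6 stellate cell and fibroblast markers was 495 to 622, 407 to 477, 408 to 445 and 345 to 388 CPM in the same 4 groups, and that of 6 lymphocyte markers 26.8 to 32.6, 15.5 to 25.0, 15.04 to 25.8 and 9.10 to 11.4 CPM. B6 females had the highest and C3H/HeN males the lowest median of each of these 3 lists. Of the 6 stellate cell and fibroblast markers, 0 were called in any comparison. Between the strains, 0 lymphocyte markers were called in females and 1 was lower in C3H/HeN males. Ptprc held most of the lymphocyte sum, at means of 24.6, 16.2, 16.2 and 9.47 CPM in the same 4 groups. The sum of 6 hepatocyte markers was higher in C3H/HeN in each sex. It was 93954 to 122879 CPM in B6 females, 74241 to 97764 in B6 males, 132085 to 158383 in C3H/HeN females and 105876 to 131613 in C3H/HeN males. Most of it was Alb, at means of 88003 CPM in B6 females and 122610 CPM in C3H/HeN females. Of the 6 markers, 1 was called higher in C3H/HeN in each sex. In females the means of Alb, Apoa1 and Ttr were higher in C3H/HeN and those of Cps1, Pck1 and Tat lower. In males only that of Tat was lower. In bulk tissue, fewer cells of a type and less RNA per cell cannot be told apart, and the part of Kupffer cell or other cell content in the C1q differences was not tested.

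C3 (chr17:57343390-57367559), on which the activation pathways converge, was among the members higher in females. In B6 it was at 12211, 12688, 14804, 16360.0 and 17295 CPM in females and 8364, 8751, 7093, 6397 and 9501 CPM in males (log2 fold change 0.87, SE 0.07, edgeR adjusted p = 1.90e-08). In C3H/HeN it was at 13463, 11347, 11454, 16744 and 14822 CPM in females and 9554, 9066, 9775, 8359 and 9677 CPM in males (log2 fold change 0.59, SE 0.07, edgeR adjusted p = 3.35e-06). Females were above males without overlap in each strain, by 1.83-fold and 1.502-fold, and within pools the log2 difference was 0.88, 0.82 and 0.89 in B6 and 0.74, 0.49 and 0.45 in C3H/HeN. The C3H/HeN call was lost without the pool term (edgeR adjusted p = 0.00705). C2, the protease that is cut together with C4, was not called, with group means from 97.4 to 125 CPM.

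In the lectin pathway, Mbl2 (chr19:30307447-30314172), which encodes mannose-binding lectin C, was called between the sexes in both strains, and the other 3 members were not. It was at 553, 551, 408, 424 and 373 CPM in B6 females and 209.6, 146, 226, 280.1 and 162 CPM in B6 males (log2 fold change 1.20, SE 0.08, edgeR adjusted p = 1.30e-09). In C3H/HeN it was at 399, 447, 462, 312 and 284 CPM in females and 209.5, 162, 174, 280.1 and 239 CPM in males (log2 fold change 0.78, SE 0.08, edgeR adjusted p = 4.19e-07), again without overlap. The sex difference was 2.29-fold in B6 and 1.72-fold in C3H/HeN, and the interaction, -0.41 on the log2 scale, had an edgeR adjusted p of 0.0431 and was not called. The C3H/HeN call was lost without the pool term (edgeR adjusted p = 0.00478). Mbl1, the other mannose-binding lectin, was at 166 ± 33.4 and 178 ± 33.6 CPM in B6 females and males and 152 ± 20.8 and 169.9 ± 32.3 CPM in C3H/HeN females and males (SD, n = 5), and its log2 fold changes between the sexes were -0.10 and -0.23 (edgeR adjusted p = 0.335 and 0.0293). Masp1 and Masp2, the proteases, had no log2 fold change over 0.30 in any comparison. For Masp1 the strain log2 fold change was 0.29 in females and 0.30 in males (edgeR adjusted p = 5.00e-04 and 5.26e-04), short of the fold limit.

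In the alternative pathway, Cfd (chr10:79353598-79355405), the gene of factor D, known as adipsin for its abundance in fat, was counted in 1 group only. The 5 B6 males had 114, 56, 23, 31 and 42 counts, and the other 15 libraries had 0. Cfd thus passed the filter on low counts through B6 males alone, the group in which it is high, and a gene that passes in this way had to differ. With 3 counts per library taken as the limit that a count of 0 allows, B6 males were at least 20.8-fold higher than B6 females. They were at least 16.97-fold higher than C3H/HeN males. The calls (edgeR adjusted p = 5.80e-05 for sex and 3.40e-05 for strain) are a description, since the filter chose the gene on these values. Without the pool term the calls were lost (edgeR adjusted p = 0.00184 for sex and 0.00143 for strain), and with the replicate number as a block the strain call was lost (edgeR adjusted p = 0.00119). None of the 5 adipocyte markers passed the filter on low counts. Their summed level was at most 0.192 CPM, reached in the B6 male of replicate 1, which was also the library with the most Cfd counts (114). That sum was 0 in the B6 male of replicate 4 (31 Cfd counts) and 0.155 CPM in the C3H/HeN female of replicate 2 (0 Cfd counts). Lep had 0 counts in all 20 libraries, and Retn had 5, 1 and 1 counts in the B6 males of replicates 1, 2 and 3 and 0 in the other 17 libraries. The highest Adipoq counts were 4 in B6 females, 1 in B6 males, 4 in C3H/HeN females and 1 in C3H/HeN males. For Adig they were 2, 3, 3 and 1, and for Plin1 1, 0, 0 and 1. The part of fat tissue in the Cfd counts was not tested. Cfb, the gene of factor B, was at 1544 ± 89.5 and 1272 ± 165 CPM in B6 females and males and 1644 ± 153 and 1379 ± 99.8 in C3H/HeN (SD, n = 5), without a call. Among the regulators, C4bp, the binding protein of C4b, had log2 fold changes between females and males of -0.49 in B6 and -0.47 in C3H/HeN (edgeR adjusted p = 8.84e-06 and 1.71e-05), just short of the fold limit of 0.5. Cfi, which cleaves C3b and C4b, had its largest log2 fold change, 0.39, between the strains in males (edgeR adjusted p = 3.34e-04).

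Of the 26 complement members, 14 were called in at least 1 comparison, beside 19.4% of all genes. These 14 include C1rb, C1s2 and Cfd, which passed the filter on low counts only through groups in which they are high. Of the 19 members of coagulation, fibrinolysis and the vessel wall, 5 were called, namely F7, Kng2, F12, F11 and Thbd, and the difference between these shares was not tested. Factor XII, encoded by F12 (chr13:55519319-55528165), starts the contact pathway and had the lowest adjusted p among the 5. In females it was at 408, 454, 452, 413 and 419.8 CPM in B6 and 275, 253, 243, 264 and 234 CPM in C3H/HeN (log2 fold change -0.76, SE 0.05, edgeR adjusted p = 5.94e-10). In males it was at 451, 388, 440.2, 407 and 423 CPM in B6 and 273, 255, 253, 248 and 283 CPM in C3H/HeN (log2 fold change -0.71, SE 0.05, edgeR adjusted p = 1.56e-09). The spread within each group was small, all B6 mice were above all C3H/HeN mice, and the log2 differences within pools were -0.74, -0.72 and -0.80 in females and -0.67, -0.70 and -0.77 in males. The sexes differed by 0.03 in B6 and -0.03 in C3H/HeN (edgeR adjusted p = 0.711 and 0.700).

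F11 (chr8:46326522-46347385), the gene of factor XI, which factor XII activates, was higher in C3H/HeN males. In males it was at 80.9, 94.4, 118, 75.9 and 129 CPM in B6 and 141, 172, 174, 167 and 183 CPM in C3H/HeN (log2 fold change 0.76, SE 0.13, edgeR adjusted p = 1.60e-04). In females it was at 96.4, 79.0, 91.1, 122 and 98.6 CPM in B6 and 123, 96.6, 130.5, 157 and 155 CPM in C3H/HeN, with overlap, and the difference of 0.44 was not called (edgeR adjusted p = 0.0119). The call in males was lost without the pool term (edgeR adjusted p = 0.00151), when only male libraries were fitted (edgeR adjusted p = 0.00203), without the B6 male of replicate 1 (edgeR adjusted p = 0.00142) and without the C3H/HeN male of replicate 4 (edgeR adjusted p = 0.00122). Klkb1, which encodes prekallikrein and lies next to F11 on chromosome 8, was at group means of 383 to 433 CPM and was not called.

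The kininogens, the cofactors of the contact pathway and precursors of bradykinin, had 1 call. Kng2 (chr16:22985925-23029174) was at 335, 425, 421, 319 and 340.1 CPM in C3H/HeN females and 245, 235, 219, 249 and 248 CPM in C3H/HeN males (log2 fold change 0.59, SE 0.08, edgeR adjusted p = 2.49e-05). In B6 it was at 306, 302, 271, 294 and 255 CPM in females and 221, 218, 190.4, 226 and 161 CPM in males, also without overlap, and its log2 fold change of 0.49 fell under the fold limit (edgeR adjusted p = 1.35e-04). Kng1, its more abundant copy on the same chromosome, was at 2617 ± 303 and 2179.8 ± 211 CPM in B6 females and males and 3384 ± 268 and 2534 ± 217 CPM in C3H/HeN (SD, n = 5). Its log2 fold changes of 0.27 and 0.45 were not called (edgeR adjusted p = 0.00540 and 8.54e-05). Exons of the 2 genes were 91.1% identical and 3.28% of the 125-base stretches of Kng1 occurred in Kng2.

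F7 (chr8:13026034-13035805), the gene of factor VII of the extrinsic pathway, was at 122, 122, 103, 99.2 and 93.3 CPM in B6 females and 63.6, 62.8, 80.5, 83.3 and 60.6 CPM in B6 males (log2 fold change 0.63, SE 0.04, edgeR adjusted p = 3.32e-09). In C3H/HeN it was at 105, 132, 134, 105 and 91.9 CPM in females and 76.2, 74.8, 70.8, 95.1 and 79.9 CPM in males. There the log2 fold change was 0.45 with an edgeR adjusted p of 3.45e-07, under the fold limit, and the interaction had an adjusted p of 0.138. The B6 call was lost without the pool term (edgeR adjusted p = 0.00198). F10, the neighbour of F7 on chromosome 8, encodes factor X. Its strain log2 fold change was 0.26 in females and 0.34 in males (edgeR adjusted p = 3.79e-04 and 3.03e-05), again short of the fold limit. F3, tissue factor, was at 74 to 265 counts per library, and its largest log2 fold change, 0.68 between the strains in females, was not called (edgeR adjusted p = 0.00413). F5 and F2, the genes of factor V and prothrombin, had no log2 fold change over 0.23 and 0.13.

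The fibrinogen chains were not called in any comparison. Fga, Fgb and Fgg had strain log2 fold changes of 0.27, 0.28 and 0.27 in females and 0.40, 0.29 and 0.35 in males (lowest edgeR adjusted p = 0.00764). Sexes differed by at most 0.11. In the C3H/HeN female of replicate 4, Fga stood at 8792 CPM against 5714 to 6009.9 CPM in the other 4, Fgb at 11019 against 4946 to 7351 CPM and Fgg at 9883 against 3845 to 6363 CPM. The same mouse had the highest Hc of its group, at 1869 against 1087 to 1328 CPM, and the highest C9, at 547 against 203 to 396 CPM. The summed level of 9 other acute phase genes was also highest in this mouse, at 9391 CPM against 6076 to 8299 CPM in the other 4 C3H/HeN females, and its part in these levels was not tested. F13b, the carrier chain of factor XIII, was at 329.9 ± 33.9 and 279 ± 33.8 CPM in B6 females and males and 344 ± 45.3 and 355 ± 28.8 in C3H/HeN (SD, n = 5), with log2 fold changes of 0.25 between the sexes in B6 and 0.31 between the strains in males (edgeR adjusted p = 1.87e-04 and 1.29e-05). Plg, the precursor of plasmin, had no log2 fold change over 0.21.

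Among the anticoagulants, Thbd (chr2:148230207-148233924), which turns thrombin into an activator of protein C, was lower in C3H/HeN males. In males it was at 3.01, 3.27, 4.63, 4.05 and 3.47 CPM in B6 and 1.51, 1.12, 1.98, 2.54 and 1.89 CPM in C3H/HeN, with no overlap (log2 fold change -0.94, SE 0.16, edgeR adjusted p = 1.78e-04). In females it was at 4.21, 4.604, 3.14, 3.04 and 3.79 CPM in B6 and 1.92, 2.70, 2.10, 3.004 and 1.95 CPM in C3H/HeN. These groups did not overlap either, by a narrow margin, but the log2 fold change of -0.68 missed the threshold (edgeR adjusted p = 0.00213). The interaction of Thbd had an edgeR adjusted p of 0.626. Without the C3H/HeN female of replicate 4, Thbd passed in females (log2 fold change -0.83, edgeR adjusted p = 1.92e-04). The call in males was lost when only male libraries were fitted (edgeR adjusted p = 0.00132). Vwf, which like Thbd is made by endothelial cells, was at 5.19 ± 1.43 and 3.87 ± 1.37 CPM in B6 and C3H/HeN females and 5.07 ± 1.33 and 2.45 ± 0.583 CPM in males (SD, n = 5), with log2 fold changes of -0.38 and -1.05 that were not called (edgeR adjusted p = 0.192 and 0.00162). In females, without the C3H/HeN female of replicate 4, at 6.22 CPM against 2.61 to 3.55 CPM in the others, the log2 fold change was -0.73 (edgeR adjusted p = 4.25e-04). The summed level of 8 endothelial markers ranged over 312 to 383 CPM in B6 males and 323 to 388 CPM in C3H/HeN males. In females it ranged over 373 to 487 CPM in B6 and 351 to 428 CPM in C3H/HeN. Of the 8 markers, 1 was called lower in C3H/HeN females and 0 in C3H/HeN males. The part of endothelial cell content in the Thbd and Vwf levels was not tested. Proc, protein C, had a strain log2 fold change of 0.25 in males (edgeR adjusted p = 7.70e-04), and Pros1, protein S, had strain log2 fold changes of -0.42 in females and -0.30 in males (edgeR adjusted p = 8.88e-06 and 3.65e-04), all short of the fold limit.

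**Figure D5:**
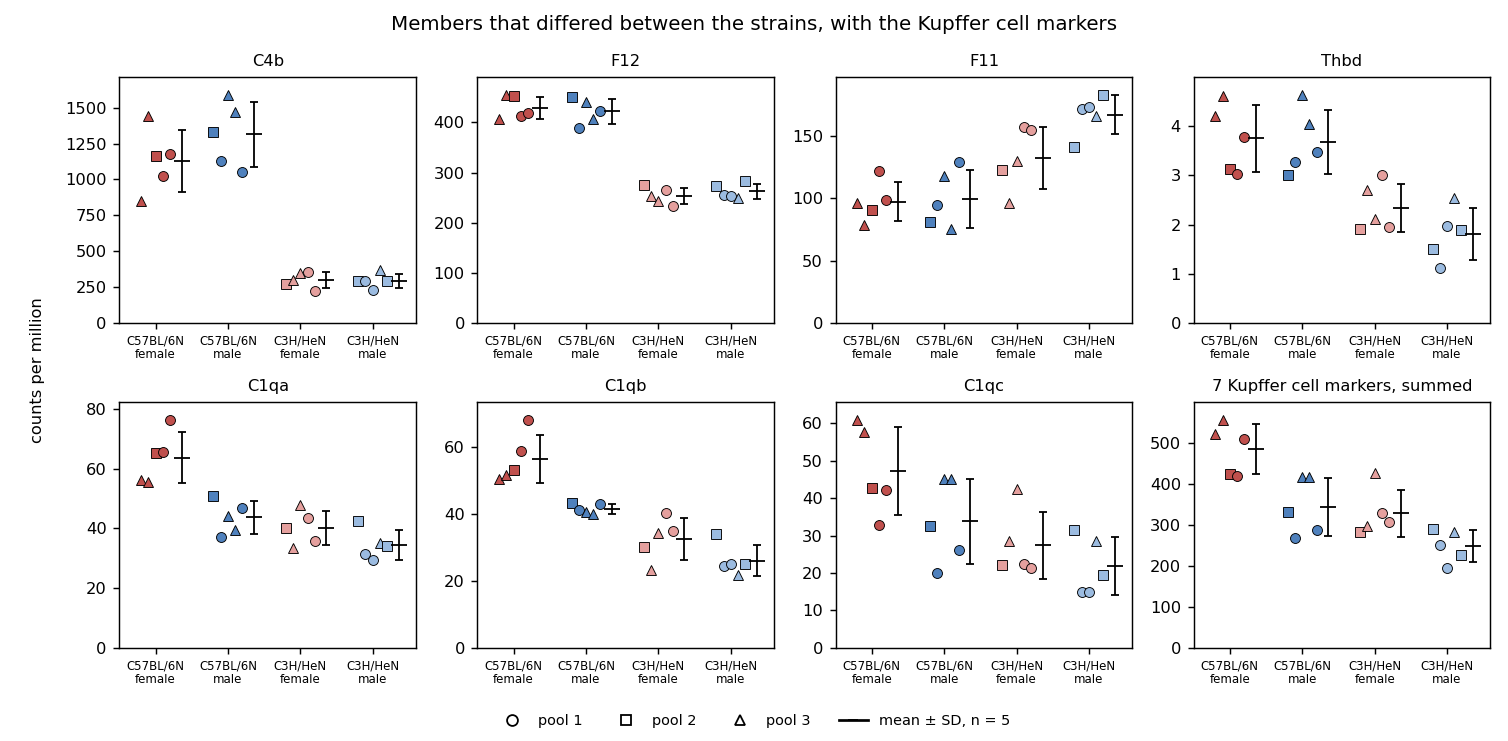
CPM of 7 members and the summed CPM of 7 Kupffer cell markers in each library, 5 libraries a group, with symbols for the sequencing pool and bars for the mean ± SD. C4b, F12 and Thbd separate the strains in both sexes, Thbd only narrowly in females, and F11 separates them in males. The C1q chains, like the Kupffer cell markers, are highest in B6 females and lowest in C3H/HeN males on average.

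Of a list of 66 other genes of the same pathways, 65 were in the table and 59 passed the filter. Between the sexes, 3 were higher and 4 lower in B6 females, beside 6.34% of all genes called in either direction, and 4 were higher and 3 lower in C3H/HeN females, beside 6.90%. Properdin Cfp, the stabiliser of the alternative convertase, was higher in females by 0.85 in B6 and 0.86 in C3H/HeN on the log2 scale, and Vsig4, a macrophage receptor for C3 fragments, by 0.75 and 0.51. The thrombin receptor F2r was lower in females, with log2 fold changes of -1.44 and -0.69, and so was the thrombin inhibitor Serpine2, with -2.36 and -2.38. Serpina5, the protein C inhibitor (-3.15), and Vkorc1l1 (-0.53) were the other lower calls in B6, and Clu, an inhibitor of the terminal pathway (-0.50), was the other in C3H/HeN. The plasminogen receptor Plgrkt was higher in females in both strains (0.60 and 0.53), and Colec12 was higher in C3H/HeN females (0.80).

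Between the strains, 6 of the 59 were called in females, all lower in C3H/HeN, beside 9.40% of all genes called in either direction. In males 13 were called, with 2 higher and 11 lower in C3H/HeN, beside 9.64% of all genes. The log2 fold changes in females and males were -1.90 and -1.94 for Cfhr2, a complement factor H family member, and -1.75 and -1.63 for the complement receptor C5ar2. The pore inhibitor Cd59b was lower in both sexes, with a log2 fold change of -1.85 in females. Vsig4 and Serpine2 were also lower in both sexes, at -0.81 and -0.57 and at -1.43 and -1.42. In males Itgax (-1.93), Colec12 (-1.39), F2r (-1.08), Anxa2 (-1.11) and S100a10 (-0.52) were also lower, and Cpn1 (0.59) and Hgfac (0.53) were higher. For the interaction, 1 gene of the list was called. Colec12, a scavenger receptor of the collectin family, was at 89.6 ± 7.89 and 120.4 ± 8.39 CPM in B6 females and males and at 80.1 ± 7.61 and 47.04 ± 5.74 CPM in C3H/HeN (SD, n = 5), so that the mean of females was below that of males in B6 and above it in C3H/HeN (log2 interaction 1.23, edgeR adjusted p = 5.67e-07).

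The members' start regions, from 250 bases before to 50 bases after the annotated start, were searched for TTCNNNGAA, the palindrome that STAT proteins are known to bind, which reads the same on both strands. It occurred in 10 of 45 members (22.2%), against 1977 of 24742 genes with such a window (7.99%). The holders were C1qa, C1ra, C1rb, C7, C8a, Cfb, Masp2, Fga, Fgb and Pros1. C1ra and C1rb hold the same site, TTCCCTGAA, within the stretch their start regions share (92.7% identical over 150 bases). They are therefore not separate finds. Among the members called between the sexes, C8a was the only holder, with the match 228 bases before its start. It is shown with its surroundings, the match in capitals, beside those of Fga, Fgb and Cfb, whose proteins are known as acute phase reactants.
C8a, chr4:104549203-104549251, strand -: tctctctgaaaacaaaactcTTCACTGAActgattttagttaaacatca
Fga, chr3:82829825-82829869, strand +: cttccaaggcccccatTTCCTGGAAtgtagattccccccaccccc
Fgb, chr3:82853919-82853967, strand -: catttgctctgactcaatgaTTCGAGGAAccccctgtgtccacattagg
Cfb, chr17:34999478-34999526, strand -: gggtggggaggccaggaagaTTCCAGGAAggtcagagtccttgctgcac

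Fgg and C3 had no match in this window, and a link between the match and acute phase genes was not tested. A match is a description of these letters only, and no occupancy was measured.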

How the data were processed

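Liver RNA of 20 mice was sequenced as paired-end reads of 125 bases from ribosomal RNA-depleted, stranded libraries. Per the study's methods, the authors trimmed reads with Cutadapt 1.9.1, aligned them to mm9 with STAR 2.5.1b and counted fragments per RefSeq gene with featureCounts (Subread 1.5.0-p1), leaving out reads that fit several places or genes. The deposited counts are whole numbers per gene, without normalization, and were used for all main tests. The deposited TPM values were made by the authors from such counts and gene lengths, and were used for levels between genes and for limma alternatives. Both tables hold all 20 libraries, with 0 columns of other series, and their headers of the gene symbol and gene ID columns are interchanged.

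Groups were taken from the labels. Counts were fitted with edgeR 4.0.16 in R 4.3.3 (TMM factors, filterByExpr, quasi-likelihood test) over all 20 libraries with group and sequencing pool as terms, and p-values were adjusted by Benjamini-Hochberg over 13704 genes. A call needed an adjusted p under 0.001 and an absolute log2 fold change over 0.5, the thresholds of the study's methods. Standard errors were derived from the fitted change and its F statistic. Values within a pool are differences of mean log2(CPM + 0.1). The design assumes that each library is a separate mouse, and no 2 libraries of a group agreed within sampling noise (40 pairs, chi-square per degree of freedom at least 20.0). After removal of the pool means, deviations of same-numbered replicates had mean correlations of -0.02 to 0.12 over the 4 comparisons. The numbers were therefore not used as pairs. Without that removal the means were 0.26 and 0.21 between the strains in females and males. Between the sexes in B6 and C3H/HeN they were -0.21 and -0.30. The fitting step was tested on simulated data with known changes. Members and lists were chosen with earlier results of these data known. Full values are given for members called in any comparison and for the 3 with the widest spread within a group (C1rb, Cfd and C8a), and other members are given by level. Sequences were read from the mm9 assembly (NCBIM37) at the deposited coordinates with Biopython 1.88, and likeness between paired genes was computed over GENCODE exons within each gene. Alternatives were DESeq2 1.42.0, other scalings, no filter, no pool term, a replicate block, limma 3.58.1 on log2 TPM, a looser threshold, only the libraries compared, and leaving out each library. A gene of the list of other pathway genes is counted there but not reported here by name.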

Additional observations from a re-analysis of the deposited data

Results flagged for a closer look

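Within groups of 5 mice, 13 of 177 tested sets of values had a highest or lowest mouse far from the other 4, by Dixon's ratio against 0.71, where chance marks about 1 in 20 sets. In the C3H/HeN male of replicate 5, C1rb was high at 138 CPM, and C1ra and C1s1 were low at 168 and 266 CPM. In the C3H/HeN female of replicate 4, C8a (842 CPM), Fga (8792 CPM) and Vwf (6.22 CPM) were high. In the C3H/HeN male of replicate 4, C4bp was high at 752 CPM against 450.2 to 475 CPM, and Plg was low at 2283 CPM against 2896 to 3090 CPM. This was the only library of its group in pool 3, and Dixon's ratio takes no account of pool. Pool accounted for 91.8% of the within-group variance of C4bp and 92.3% of that of Plg. Levels in pool 3 were 1.60 and 0.72 times those in pool 1. C1qb was high in the C3H/HeN male of replicate 1 at 33.8 CPM, and C4a in the C3H/HeN female of replicate 1 at 9.09 CPM. C9 was high in the B6 female of replicate 5 at 358 CPM, and Cfb was low in the C3H/HeN female of replicate 5 at 1374 CPM against 1665 to 1739 CPM. C1s2 stood highest in the B6 male of replicate 2 at 0.122 CPM, which is 4 counts. Among the other pathway genes, the sex difference of Colec12 differed between the strains by 1.23 on the log2 scale in the test of the interaction.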

How the results depend on the processing

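Of 608 refits of the 32 calls at the same thresholds, 591 kept the direction and the call, 17 lost the call and 0 turned the direction. Without the pool term, 5 members were called between the sexes in B6 and 5 in C3H/HeN, in place of 9 and 8, and calls over all genes dropped from 869 to 421 and from 945 to 482. At an adjusted p under 0.05 with no fold limit, 26 and 22 members were called between the sexes in B6 and C3H/HeN, beside 34.6% and 40.0% of all genes, 21 and 28 between the strains in females and males, beside 32.9% and 34.5%, and 2 for the interaction, beside 2.96%. For the interaction, DESeq2 called 1 member, limma on log2(TPM + 1) called 1 and limma on log2(TPM + 0.1) called 1, Cfd each time. Leaving out each library in turn gave 9 to 11 and 8 to 9 members called between the sexes in B6 and C3H/HeN, 6 to 9 and 7 to 9 between the strains in females and males, and 0 for the interaction. With the replicate block beside pool, 9, 8, 7, 8 and 0 members were called. Cfd lost its strain call in males there, and Vwf gained one (edgeR adjusted p = 4.65e-04). The replicate numbers share no stated litter or day, and correlations of same-numbered mice after removal of the pool means ran from -0.19 to 0.37. Members that gained a sex or strain call at the same thresholds under some alternative were C1qa, Kng2, C4bp, F7, Kng1, C4a, F3, Thbd, Vwf, C7, C9 and C1qc. On log2(TPM + 0.1) the median of all genes shifted to 0.11 and 0.12 between the sexes. The cause of these changes was not tested. The 5 mice a group limit precision, and the lowest members (Cfd, C7, and C1rb and C1s2 in B6) rest on few counts.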

Other observations

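The sequencing pool accounted for most of the spread within groups of several members. Its share of the within-group variance was 94.0% for C8g, 93.4% for F2, 92.3% for Plg, 91.9% for F13b, 91.8% for C4bp and 91.6% for F7. Levels in pool 3 were 1.82 times those in pool 1 for C8g, 1.75 times for C1qc, 1.72 times for C2 and 1.60 times for C4bp, and 0.53 times for C8b and 0.60 times for Fgg. After C1rb in C3H/HeN males, the widest spread within a group was that of Cfd in B6 males, with a coefficient of variation of 77.4%, followed by C8a in C3H/HeN females with 65.5%.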
